A study of Mus musculus with 11 samples.

Results

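MHC class II molecules are the surface complexes with which macrophages, dendritic cells, B cells and, under inflammation, some epithelial cells show peptides to CD4 T cells. The 10 genes described here make up the class II machinery of the mouse and were chosen by symbol from 25677 genes with read counts in kidney RNA. They were the classical chains H2-Aa, H2-Ab1 and H2-Eb1, the invariant chain Cd74, the peptide-loading chains H2-DMa, H2-DMb1 and H2-DMb2, the chains H2-Oa and H2-Ob of the DM inhibitor, and Ciita, the transcriptional coactivator of the set. All 10 were listed and all 10 passed the filter on low counts in each comparison.

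The alpha and beta chains assemble in the endoplasmic reticulum with the invariant chain, which fills the peptide groove and carries the complex to endosomes. Proteases there cut the invariant chain down to a short fragment, H2-DM exchanges that fragment for a peptide, and H2-O holds H2-DM back. Ciita does not bind DNA itself but joins a complex of RFX, CREB and NF-Y proteins that sits on class II promoters, and interferon gamma switches Ciita on in many cell types. In the inflamed kidney of lupus models, class II is known from infiltrating leukocytes and from tubular epithelium.

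The samples were whole kidneys of 11 female mice at 21 weeks of age, with 1 library for each mouse and 3 groups. The 3 Ctr kidneys came from untreated C57BL/6J mice, the control strain. The 4 Lpr kidneys came from untreated MRL/lpr mice, a strain with the lpr mutation of Fas that develops lupus-like nephritis. The 4 DNase kidneys came from MRL/lpr mice that carry the same mutation and were given DNase I, an enzyme that digests extracellular DNA, by daily intraperitoneal injection from the onset of skin disease until collection. Total counts ran from 33469858 to 38460873 in each library. Strain and disease cannot be told apart between MRL/lpr and C57BL/6J mice, and the strains differ in the class II region itself: MRL mice carry haplotype H2k and C57BL/6 mice H2b, while reads were placed on a genome from C57BL/6. A difference in how well reads of each haplotype are counted therefore cannot be told apart from a difference in RNA. In whole tissue, fewer cells of a type and less RNA in each cell cannot be told apart either.

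In the GRCm38 annotation the 8 H2 members lie within a stretch of chromosome 17 from the start of H2-Oa (chr17:34092379-34095234, plus strand) to the end of H2-Eb1 (chr17:34305867-34316674, plus strand). Ciita is on chromosome 16 (chr16:10480014-10531064, plus strand). Class II promoters are known for an X box, bound by RFX and CREB, followed by a Y box, bound by NF-Y, and the promoter windows are shown because this shared layout is what Ciita acts through. RefSeq promoter windows of GRCm38.p6, which run from 250 bases before to 50 bases after a transcript start, were at hand for 7 of the 10 members. H2-Ab1, Cd74 and Ciita had none. The lines of H2-DMb1, H2-DMb2, H2-Eb1 and H2-Ob run from shortly before the X motif AACNNATGATG to shortly after the Y motif ATTGG. Those of H2-Aa and H2-Oa, where that X motif was not found, are stretches of similar length that end shortly after the Y motif. All are 5′ to 3′ on the gene's strand, with the motifs in capitals.
H2-DMb1: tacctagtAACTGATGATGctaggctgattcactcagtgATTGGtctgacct
H2-DMb2: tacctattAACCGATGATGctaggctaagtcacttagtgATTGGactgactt
H2-Eb1: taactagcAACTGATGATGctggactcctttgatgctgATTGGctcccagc
H2-Ob: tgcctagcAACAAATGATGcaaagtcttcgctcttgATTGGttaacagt
H2-Aa: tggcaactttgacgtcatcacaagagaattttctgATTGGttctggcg
H2-Oa: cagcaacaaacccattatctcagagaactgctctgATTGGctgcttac

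These lines are chr17:34153091-34153142 for H2-DMb1, chr17:34145120-34145171 for H2-DMb2, chr17:34305770-34305820 for H2-Eb1, chr17:34238812-34238860 for H2-Ob and chr17:34092301-34092348 for H2-Oa, all on the plus strand, and chr17:34287859-34287906 on the minus strand for H2-Aa. The X motif began 31 bases before the Y motif in H2-DMb1 and H2-DMb2, 30 bases before it in H2-Eb1 and 28 bases before it in H2-Ob. The motifs did not overlap. Of 32851 promoter windows of this length, 0.137% held the X motif and 37.4% the Y motif on either strand. The X motif is the consensus of H2-DMb1, H2-DMb2, H2-Eb1 and H2-Ob themselves, with N where they differ, so its presence in these 4 of 7 members is a description. That spelling was not found in the H2-Aa, H2-Oa and H2-DMa windows, and 1 of the 2 H2-DMa windows held the Y motif.

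The question asked of Lpr against Ctr kidneys is how the class II genes differ between the lupus model and the control strain. The 10 genes together held 0.0700% ± 0.0049 (SD, n = 3) of all counts in Ctr kidneys, 0.721% ± 0.203 (SD, n = 4) in Lpr kidneys and 0.513% ± 0.0652 (SD, n = 4) in DNase kidneys. Among the 16074 genes tested by edgeR for Lpr against Ctr, 9 of the 10 members passed an adjusted p under 0.05 and all 9 were higher, against 7.27% of all genes tested. With a log2 fold change above 2 required as well, which is the rule for a called gene, 7 of 10 were called higher, against 4.65% of all genes. Every Lpr kidney exceeded every Ctr kidney in all 10 members, against 16.2% of all genes tested. The median log2 fold change of the members was 2.69, and that of all genes 0.03.

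The classical chains form the surface molecules I-A (H2-Aa with H2-Ab1) and I-E (H2-Eb1 as its beta chain). Levels are given as the deposited FPKM, which is counts scaled to gene length and library size. H2-Aa FPKM was 115, 98.2 and 109 in Ctr kidneys 1 to 3, and 798, 1163, 647 and 586 in Lpr kidneys 1 to 4. H2-Aa FPKM was 445, 553, 606 and 614 in DNase kidneys 1 to 4. The Ctr kidneys stood together far below all others, Lpr 2 was the highest kidney, and the ranges of Lpr and DNase overlapped. Against Ctr, H2-Aa rose 7.23-fold in Lpr (log2 2.85 ± 0.27 SE, adjusted p = 0.000611) and 4.84-fold in DNase (log2 2.27 ± 0.13 SE, adjusted p = 7.65e-06).

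H2-Ab1, the beta chain of I-A, had an FPKM of 119.8, 110.1 and 96.0 in Ctr kidneys, and of 487, 606, 413 and 327 in Lpr kidneys. In DNase kidneys its FPKM was 277, 289, 352 and 335. All MRL/lpr kidneys were above the Ctr kidneys, and DNase 1 was the lowest of the 8. H2-Ab1 rose 4.11-fold in Lpr (log2 2.04 ± 0.24 SE, adjusted p = 0.00143), just past the fold threshold, and 2.70-fold in DNase (log2 1.43 ± 0.12 SE, adjusted p = 5.45e-05), short of it. Its log2 fold change in Lpr fell under 2 without Lpr 2 (1.89), without Ctr 3 (1.94) and with the length trend of each library removed (1.90).

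H2-Eb1, the beta chain of I-E, had an FPKM of 68.1, 55.0 and 57.5 in Ctr kidneys, and of 338, 522, 324 and 243 in Lpr kidneys. In DNase kidneys its FPKM was 189, 248, 331 and 271. Again Ctr was separate, while DNase 3 stood above 2 of the Lpr kidneys. H2-Eb1 rose 5.78-fold in Lpr (log2 2.53 ± 0.28 SE, adjusted p = 0.00101) and 4.05-fold in DNase (log2 2.02 ± 0.18 SE, adjusted p = 6.91e-05). The DNase value lay at the fold threshold and fell under it without Ctr 2 (1.97), Ctr 3 (1.96), DNase 3 (1.88) or DNase 4 (1.99), and with the length trend of each library removed (1.98). The alpha chain of I-E was looked for as H2-Ea and H2-Ea-ps, and neither symbol was among the genes with counts. H2-Eb1 RNA alone does not give the amount of I-E.

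Cd74, the invariant chain, was the member with the most RNA for its length in every kidney. Its FPKM was 231, 202 and 217 in Ctr kidneys and 3692, 4488, 2552 and 2678 in Lpr kidneys. In DNase kidneys the FPKM was 1985, 2517, 2329 and 2754. The lowest MRL/lpr kidney, DNase 1, was still far above the highest Ctr kidney. Cd74 rose 15.1-fold in Lpr (log2 3.91 ± 0.27 SE, adjusted p = 0.000201) and 10.4-fold in DNase (log2 3.38 ± 0.15 SE, adjusted p = 1.59e-06).

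**Figure D1:**
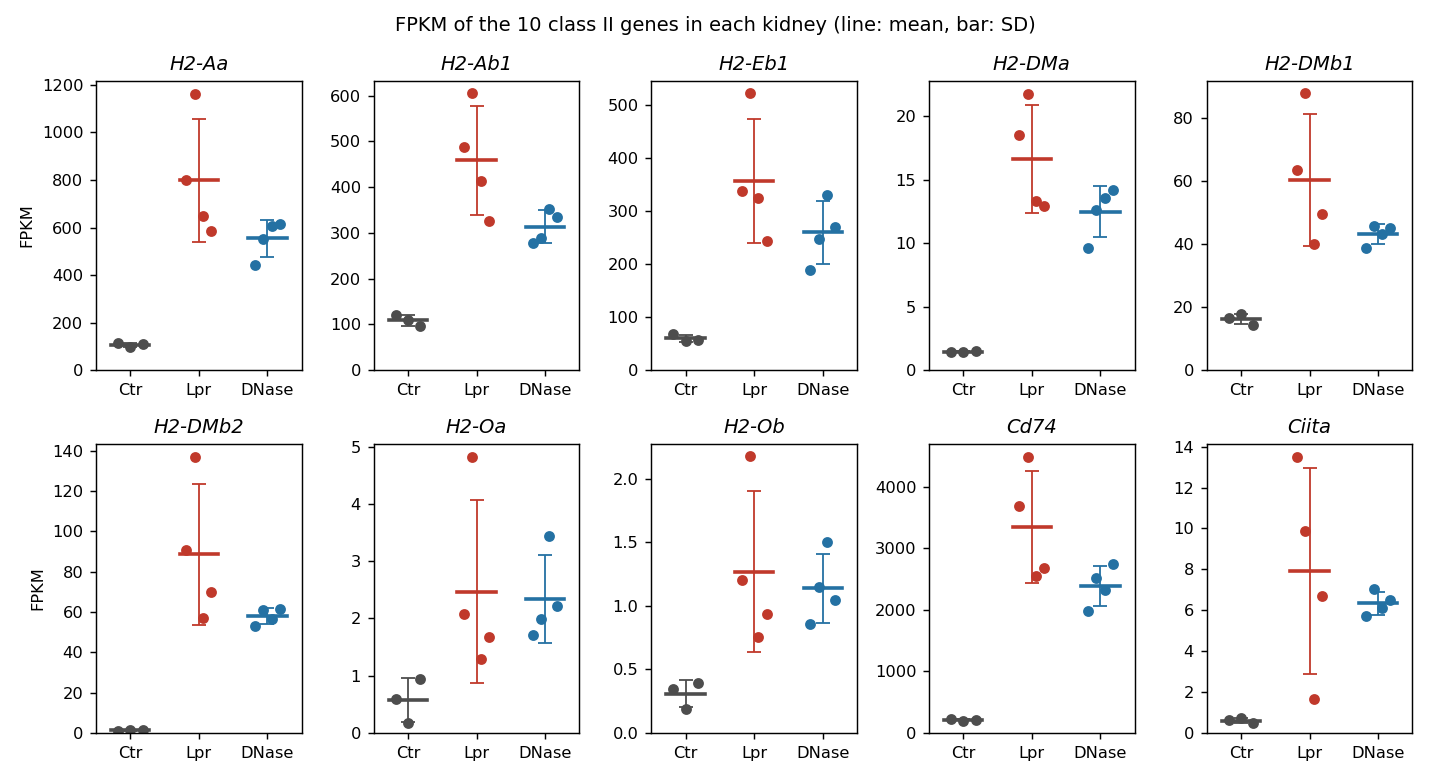
FPKM (vertical axis, linear, from 0) of each of the 10 class II genes in the 3 Ctr, 4 Lpr and 4 DNase kidneys, one panel for each gene. Points are single kidneys, thick lines group means and bars the SD. In every panel all Lpr and DNase kidneys sit above all Ctr kidneys, the Lpr and DNase points overlap, and Lpr 2 is the highest Lpr kidney in all panels but Ciita.

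H2-DM is a heterodimer of H2-DMa with H2-DMb1 or H2-DMb2 and loads peptides in endosomes. H2-DMa FPKM was 1.41, 1.44 and 1.48 in Ctr kidneys and 18.5, 21.8, 13.4 and 12.9 in Lpr kidneys. The DNase kidneys stood at 9.60, 12.6, 13.5 and 14.2. The Ctr kidneys were almost equal, and all MRL/lpr kidneys lay well above them. H2-DMa rose 11.2-fold in Lpr (log2 3.49 ± 0.24 SE, adjusted p = 0.000201) and 8.11-fold in DNase (log2 3.02 ± 0.15 SE, adjusted p = 2.93e-06). The length behind its FPKM was 8325 bases, against 3448 bases of exon in the GENCODE annotation. Beside other genes, its FPKM was therefore divided by a longer length. Its fold changes come from counts and do not use that length. With the length trend of each library removed, the H2-DMa log2 fold change in Lpr was 3.63. The H2-DMa gene overlaps Brd2 on the other strand, whose FPKM was 26.2 to 34.1 in Ctr, 23.1 to 47.0 in Lpr and 31.2 to 44.6 in DNase kidneys. Whether the counting used strand is not given in the sources used here.

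H2-DMb1, a beta chain of H2-DM, had an FPKM of 16.6, 17.7 and 14.5 in Ctr kidneys and of 63.5, 88.1, 40.1 and 49.5 in Lpr kidneys. In DNase kidneys its FPKM was 38.8, 45.8, 43.2 and 45.1. It showed the smallest fold change of the members with both MRL/lpr groups, although its Ctr range stayed separate. H2-DMb1 rose 3.59-fold in Lpr (log2 1.84 ± 0.27 SE, adjusted p = 0.00334) and 2.49-fold in DNase (log2 1.31 ± 0.11 SE, adjusted p = 3.92e-05), under the fold threshold in both.

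H2-DMb2, the other beta chain, was the member with the largest fold change. Its FPKM was 1.17, 1.40 and 1.30 in Ctr kidneys, from 62 to 66 counts, and 91.0, 137, 57.2 and 69.8 in Lpr kidneys. The DNase kidneys stood at 53.2, 60.9, 56.6 and 61.3. The gap between Ctr and every MRL/lpr kidney was wide, and the DNase kidneys lay close together. H2-DMb2 rose 66.6-fold in Lpr (log2 6.06 ± 0.36 SE, adjusted p = 0.000190) and 42.2-fold in DNase (log2 5.40 ± 0.12 SE, adjusted p = 2.87e-08).

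H2-DMb1 and H2-DMb2 are near-identical copies, so the split of reads between them is uncertain. Their longest coding transcripts in GENCODE matched at 95.4% of 848 aligned bases and shared an unbroken run of 221 bases, within which a read names neither gene. With the counts of both summed, the Ctr kidneys held a CPM of 23.0, 24.7 and 20.4 (counts scaled to library size) and the Lpr kidneys 210.0, 306, 132 and 162. The DNase kidneys held a CPM of 125, 145, 135 and 144. The summed gene rose 8.63-fold in Lpr (log2 3.11 ± 0.30 SE, adjusted p = 0.000651) and 5.66-fold in DNase (adjusted p = 1.48e-06), so it passed the fold threshold in both although H2-DMb1 alone did not. H2-DMb2 gave 62 to 66 of the summed counts in Ctr kidneys and 2609 to 7174 in MRL/lpr kidneys, so the summed result rests on H2-DMb2 too. How much of the H2-DMb2 value, or of the sum, belongs to haplotype was not tested.

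H2-Oa and H2-Ob form H2-O, which holds H2-DM back and is best known from B cells. They had the fewest counts of the members. H2-Oa FPKM was 0.601, 0.171 and 0.941 in Ctr kidneys, from 7 to 39 counts, and 2.08, 4.82, 1.29 and 1.68 in Lpr kidneys. The DNase kidneys stood at 1.72, 1.99, 3.45 and 2.21. The groups did not overlap with Ctr, but Lpr 2 stood far above the other Lpr kidneys. The H2-Oa log2 difference of 2.07 ± 0.64 SE in Lpr did not pass (adjusted p = 0.0852), and it did without Lpr 3 (adjusted p = 0.0479). In DNase, H2-Oa rose 3.85-fold (log2 1.94 ± 0.48 SE, adjusted p = 0.0183), which did not hold without Ctr 1 (adjusted p = 0.0612).

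H2-Ob, the beta chain of H2-O, had an FPKM of 0.346, 0.187 and 0.389 in Ctr kidneys, from 19 to 40 counts, and of 1.20, 2.17, 0.751 and 0.938 in Lpr kidneys. In DNase kidneys its FPKM was 0.854, 1.15, 1.501 and 1.05. The ranges of Ctr and MRL/lpr kidneys were separate, and Lpr 2 was again the highest. H2-Ob rose 3.99-fold in Lpr (log2 2.00 ± 0.45 SE, adjusted p = 0.0241) and 3.46-fold in DNase (log2 1.79 ± 0.31 SE, adjusted p = 0.00282). The Lpr result did not pass without Ctr 1 (adjusted p = 0.0906), Ctr 2 (0.0988), Ctr 3 (0.0654) or Lpr 1 (0.0516).

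Ciita, the coactivator, was at an FPKM of 0.609, 0.715 and 0.492 in Ctr kidneys and of 13.5, 9.85, 1.65 and 6.68 in Lpr kidneys. In DNase kidneys its FPKM was 5.73, 7.04, 6.10 and 6.48. Lpr 3 was by far the lowest MRL/lpr kidney and the DNase kidneys were close together. Ciita rose 12.6-fold in Lpr (log2 3.65 ± 0.63 SE, adjusted p = 0.00732) and 9.78-fold in DNase (log2 3.29 ± 0.15 SE, adjusted p = 2.18e-06). The gene is long, at 9775 bases in the files, and in Lpr 3 the deviation of log2 levels from their mean over all libraries fell with log2 gene length at a slope of -0.39, against slopes of -0.04 to 0.08 in the other 10 libraries. Without Lpr 3 the Ciita log2 fold change against Ctr was 3.98. Ciita overlaps Dexi on the other strand, whose FPKM was 8.44 to 9.59 in Ctr, 10.2 to 12.8 in Lpr and 8.63 to 11.8 in DNase kidneys.

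The comparison of DNase with Ctr kidneys asks what remained of the difference after treatment, and it shares its Ctr kidneys with the comparison above, so the values stand side by side and are not independent. Among 16100 genes tested by edgeR, all 10 members passed and were higher in DNase, against 13.1% of all genes. With the fold threshold 6 of 10 were called, against 4.56% of all genes, and H2-Ab1, H2-DMb1, H2-Oa and H2-Ob were not. Every DNase kidney exceeded every Ctr kidney in all 10 members, against 24.6% of all genes tested. The median log2 fold change of the members was 2.15, and that of all genes 0.00.

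The comparison of DNase with Lpr kidneys asks what the enzyme changed within 1 strain, so haplotype and genome are shared there. No member passed in edgeR, and 0 of the 15832 genes tested did, which is 0% of them. The smallest adjusted p of all genes was 0.820, with 543 genes lower and 343 higher at an unadjusted p under 0.05. DESeq2 found 10 genes higher and 7 lower at an adjusted p under 0.05, none of them a member. All 10 members had a log2 fold change below 0, against 52.9% of all genes tested, and 6 of 10 had an unadjusted p under 0.05 and were lower, against 3.43%. The members share their Lpr kidneys and rise and fall together, so these counts are not 10 separate observations. In no member was every DNase kidney below every Lpr kidney, against 1.12% of all genes.

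The 6 members with an unadjusted p under 0.05 in edgeR were H2-Aa, H2-Ab1, H2-DMa, H2-DMb1, H2-DMb2 and Cd74. The log2 difference of DNase from Lpr was -0.57 for H2-Aa (95% interval -1.06 to -0.08, adjusted p = 0.850). For H2-Ab1 it was -0.60 (95% interval -1.04 to -0.16, adjusted p = 0.820), and for Cd74 -0.53 (95% interval -0.99 to -0.07, adjusted p = 0.853). H2-DMb2 had the largest difference, at -0.65 (95% interval -1.17 to -0.14, adjusted p = 0.820), followed within the peptide loaders by H2-DMb1 at -0.52 and H2-DMa at -0.46. The summed H2-DMb1 and H2-DMb2 counts differed by -0.60 (adjusted p = 0.850).

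The other 4 members had intervals that included 0. The log2 difference was -0.51 for H2-Eb1 (95% interval -1.06 to 0.05), -0.35 for Ciita (-1.39 to 0.68), -0.19 for H2-Ob (-0.94 to 0.55) and -0.11 for H2-Oa (-1.02 to 0.81). A lack of change was not shown by these intervals. The median over all 10 was -0.51, and that of all genes -0.02. The sign rested on single kidneys in 3 members: without Lpr 2 the H2-Oa difference was 0.40 and the H2-Ob difference 0.16, without Lpr 1 the Ciita difference was 0.05, and without DNase 1 the H2-Oa difference was 0.01. The differences of H2-Aa, H2-Ab1, H2-Eb1, H2-DMa, H2-DMb1, H2-DMb2 and Cd74 stayed below 0 with each kidney left out in turn. They were nearest to 0 without Lpr 2, where they ran from -0.47 for H2-Ab1 to -0.30 for H2-Eb1.

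**Figure D2:**
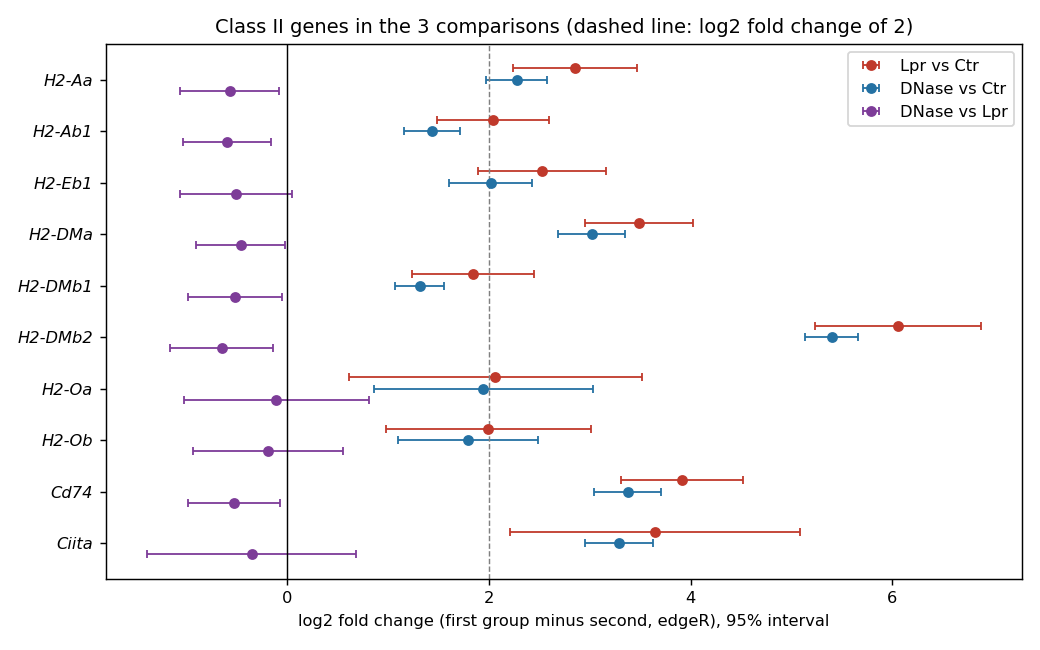
Log2 fold change (horizontal axis, first group minus second, edgeR) of the 10 class II genes for Lpr against Ctr, DNase against Ctr and DNase against Lpr. Points are estimates and bars 95% intervals for a single gene, without adjustment for the number of genes. H2-DMb2 lies farthest to the right, at 6.06 and 5.40, and all 10 points of DNase against Lpr lie left of 0, from -0.65 to -0.11.

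By the median over members, the spread among kidneys was widest in Lpr, as a description with no test. The coefficient of variation of FPKM had a median over the 10 members of 10.6% in Ctr kidneys, 33.8% in Lpr kidneys and 13.8% in DNase kidneys. In Lpr kidneys it ran from 25.6% for H2-DMa to 64.9% for H2-Oa, and in DNase kidneys from 6.67% for H2-DMb2 to 32.6% for H2-Oa. Lpr 2 held the highest Lpr value in 9 of 10 members, and Lpr 1 in Ciita. Lpr 3 was the lowest Lpr kidney in 6 members and Lpr 4 in the other 4, H2-Aa, H2-Ab1, H2-Eb1 and H2-DMa. DNase 1 was the lowest DNase kidney in all 10. Members measured in the same libraries share depth and tissue makeup, so the order of kidneys is 1 pattern and not 10.

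Over the 8 MRL/lpr kidneys the correlation of log2 levels between members had a median of 0.77 over 45 pairs, from 0.13 to 1.00, and these points share libraries. Pairs with Ciita had a median of 0.45 over 9 pairs and of 0.79 without Lpr 3. The levels had the same leading members in each group. Cd74 was first in all 3 groups, with a range clear of the next gene. H2-Aa and H2-Ab1 overlapped in Ctr kidneys, at means of 107 ± 8.59 and 109 ± 12.0 FPKM (SD, n = 3), whereas H2-Aa was above H2-Ab1 within each of the 8 MRL/lpr kidneys. H2-DMb1 was above H2-DMb2 in all 3 Ctr kidneys and below it in all 8 MRL/lpr kidneys. Ciita, H2-Oa and H2-Ob were the 3 lowest, and in Ctr kidneys their ranges overlapped from one to the next.

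A ratio of 2 members within a kidney does not depend on library size. Of 21 tests over 7 ratios, none passed after adjustment, and with 3 Ctr kidneys the smallest 2-sided p of the exact permutation test is 0.0571. For the DNase against Lpr comparison it is 0.0286. Cd74 over H2-Ab1, the invariant chain for each I-A beta chain, was 1.93, 1.83 and 2.26 per length in Ctr kidneys and 7.58, 7.40, 6.18 and 8.19 in Lpr kidneys. In DNase kidneys it was 7.17, 8.72, 6.61 and 8.22. Ctr was separate from both MRL/lpr groups (log2 difference 1.87 in Lpr and 1.93 in DNase, both p = 0.0571, exact permutation test), and Lpr and DNase overlapped (p = 0.571, exact permutation test).

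H2-Aa over H2-Ab1, the alpha for each beta chain of I-A, was 0.962, 0.892 and 1.14 in Ctr kidneys and 1.64, 1.92, 1.57 and 1.79 in Lpr kidneys. In DNase kidneys it was 1.60, 1.92, 1.72 and 1.83, so Ctr was again apart and the MRL/lpr groups overlapped (log2 difference of DNase from Lpr 0.03). H2-Eb1 over H2-Ab1 was 0.499 to 0.5997 in Ctr, 0.694 to 0.861 in Lpr and 0.683 to 0.939 in DNase kidneys, with the same separation. Whether the 2 haplotypes are counted alike cannot be told apart from these differences.

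H2-DMb2 over H2-DMb1 was 0.0727, 0.0811 and 0.0922 in Ctr kidneys and 1.43, 1.55, 1.43 and 1.41 in Lpr kidneys. In DNase kidneys it was 1.37, 1.33, 1.31 and 1.36, each below each Lpr kidney. The log2 difference of DNase from Lpr was -0.12 (p = 0.0286, the smallest this exact permutation test can give, adjusted p = 0.120 over the 21 tests). The difference in this ratio between Ctr and the MRL/lpr groups was 4.16 in Lpr and 4.04 in DNase on the log2 scale (both p = 0.0571, exact permutation test).

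The ratios of the regulators varied more. Ciita over H2-Ab1 was 0.00513 to 0.00655 in Ctr kidneys, 0.00400 in Lpr 3 and 0.0163 to 0.0277 in the other 3 Lpr kidneys, and 0.0173 to 0.0244 in DNase kidneys. Levels in Lpr 3 fell with gene length (slope -0.39), and the lengths were 9775 bases for Ciita and 1193 for H2-Ab1. How much of the Lpr 3 ratio belongs to gene length was not tested. H2-Oa over H2-DMa, an inhibitor chain beside a loader chain, was 0.152 to 0.665 in Ctr, 0.1002 to 0.223 in Lpr and 0.159 to 0.257 in DNase kidneys, and the groups overlapped. A longer H2-DMa length makes this ratio larger, and 8325 bases were used, against 3448 bases of exon in GENCODE. The length used for H2-DMa shifts every kidney alike on the log2 scale, so it does not change the comparison of groups. The length trend of Lpr 3 was not removed from the ratios given here. H2-Ob over H2-DMb1 was 0.0117 to 0.0282 in Ctr, 0.0192 to 0.0249 in Lpr and 0.0225 to 0.0351 in DNase kidneys, also with overlap (DNase against Lpr p = 0.0857, exact permutation test).

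**Figure D3:**
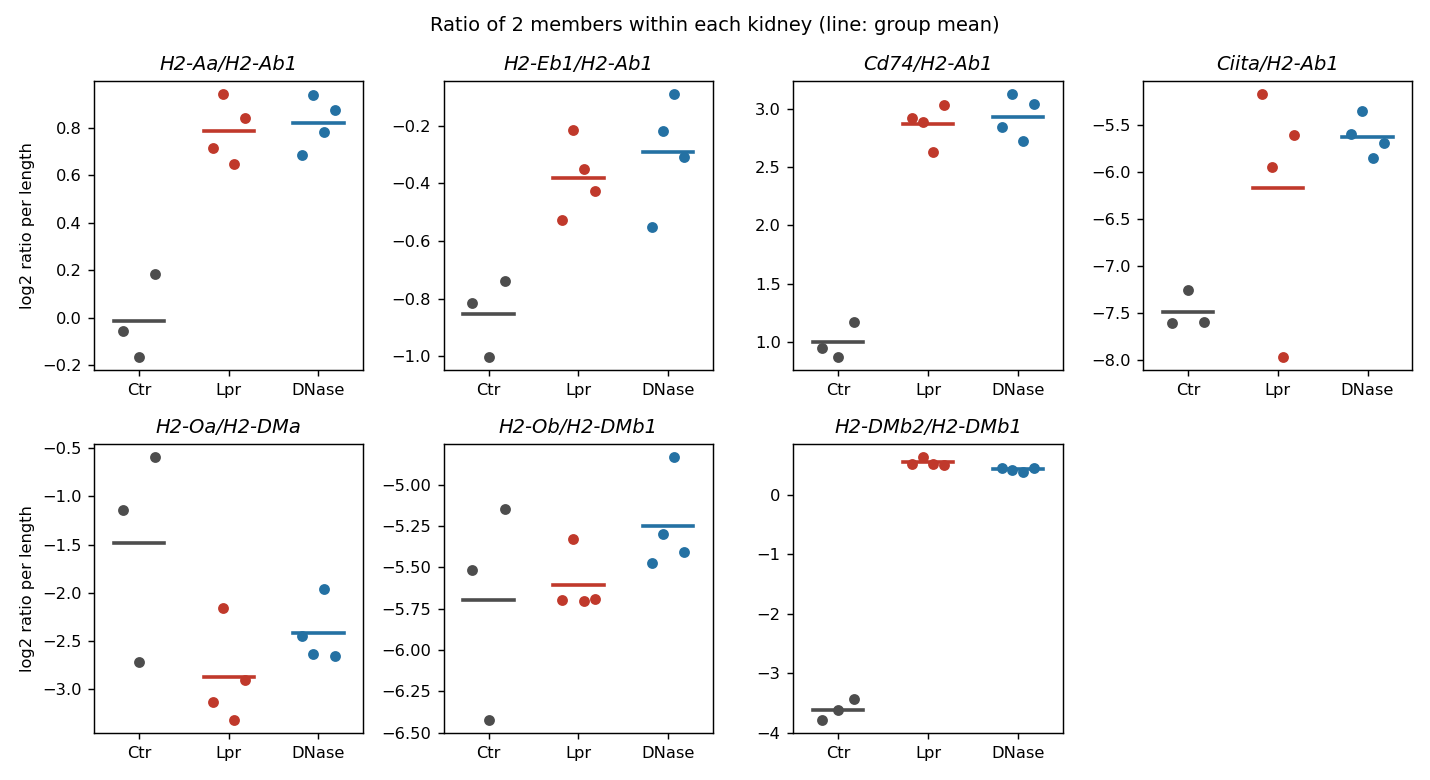
Log2 ratio per length (vertical axis, a different range in each panel) of 2 members within each kidney, for 7 pairs of genes in Ctr, Lpr and DNase kidneys. Points are kidneys and lines group means. Ctr is apart from both MRL/lpr groups for H2-Aa, H2-Eb1 and Cd74 over H2-Ab1 and for H2-DMb2 over H2-DMb1. Lpr 3, where levels fell with gene length, lies at -7.96 for Ciita over H2-Ab1.

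The genes for proteins that bind class II promoters beside Ciita did not pass for Lpr against Ctr. Of 8 genes for RFX, NF-Y and CREB family proteins, 0 passed for Lpr against Ctr, with a median log2 fold change of 0.16, and their summed FPKM was 46.2 to 47.9 in Ctr and 46.3 to 49.4 in Lpr kidneys. Rfx5, an RFX subunit, was at 1.72 ± 0.208 FPKM in Ctr (SD, n = 3) and 2.08 ± 1.01 in Lpr (SD, n = 4), a log2 difference of 0.22 ± 0.40 SE. For DNase against Ctr, 2 of the 8 passed, and Nfya rose by 0.36 and Creb1 by 0.31 on the log2 scale. Nfya did not pass without Ctr 1, Ctr 2, DNase 2, DNase 3 or DNase 4, nor Creb1 without Ctr 1, Ctr 2 or DNase 2 (adjusted p from 0.0625 to 0.109 in edgeR). For DNase against Lpr 0 passed.

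Among 13 genes for the interferon gamma route to Ciita, 6 passed for Lpr against Ctr and all 6 were higher, 11 passed and were higher for DNase against Ctr, and 0 passed for DNase against Lpr. The median log2 fold changes were 1.73, 1.44 and -0.19. Irf1, a transcription factor that acts on the Ciita promoter, was at 7.56, 7.55 and 7.75 FPKM in Ctr kidneys and at 65.2, 77.0, 28.01 and 34.7 in Lpr kidneys. In DNase kidneys Irf1 was at 33.1, 33.9, 40.4 and 31.7 FPKM, and no MRL/lpr kidney overlapped with Ctr. Irf1 rose by 2.70 ± 0.36 SE in Lpr (adjusted p = 0.00223) and by 2.10 ± 0.10 SE in DNase (adjusted p = 2.12e-06) on the log2 scale. Socs1, a feedback inhibitor of the route, rose by 3.03 ± 0.46 SE in Lpr (adjusted p = 0.00414), and Spi1, a myeloid transcription factor, by 2.57 ± 0.26 SE (adjusted p = 0.000713).

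Ifng itself, the cytokine, was at 1 to 3 counts in Ctr kidneys, at 20 to 42 in Lpr kidneys and at 14 to 47 in DNase kidneys. Taken against a floor of 3 counts in each Ctr library, it was higher by a log2 of at least 3.34 in Lpr and 3.37 in DNase. In Lpr 3, the MRL/lpr kidney with the least Ciita, Ifng had 42 counts while the Irf1 level was the lowest of the Lpr kidneys. Levels in Lpr 3 fell with gene length (slope -0.39), and the lengths were 9775 bases for Ciita, 3359 for Irf1 and 1210 for Ifng. How much of this order belongs to gene length was not tested.

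Of 13 listed genes for processing and turnover of class II, 8 passed and were higher for Lpr against Ctr, with a median log2 fold change of 0.82. Ctss, the protease that trims the invariant chain, was at 16.5, 11.0 and 13.4 FPKM in Ctr kidneys and at 186, 277, 237 and 116 in Lpr kidneys. In DNase kidneys Ctss was at 99.7, 144, 192 and 142 FPKM, all above Ctr. Ctss rose by 3.88 ± 0.35 SE in Lpr (adjusted p = 0.000560) and by 3.31 ± 0.23 SE in DNase (adjusted p = 1.77e-05) on the log2 scale. Ifi30, a thiol reductase of endosomes, rose by 1.15 ± 0.23 SE (adjusted p = 0.0143) in Lpr. Cd83 and Cd37, membrane proteins of antigen-presenting cells, rose by 2.44 and 2.43. Ifi30 did not pass without Ctr 1 (adjusted p = 0.0812) or Ctr 3 (0.0801), and Cd83 did not without Ctr 1 (0.0990), Ctr 2 (0.130), Ctr 3 (0.132) or Lpr 1 (0.0515) and was at 1.62 without Lpr 2. For DNase against Ctr 8 passed higher and 2 lower, Ctsl at -0.33 and Marchf8, a ligase that marks membrane proteins for removal, at -0.52. Ctsl did not pass without Ctr 1 (adjusted p = 0.0512) or Ctr 2 (0.0570). Marchf1, also on the list, went the other way, at 1.78 for DNase against Ctr (adjusted p = 0.00149, edgeR). For Lpr against Ctr Marchf1 was at 1.56 (adjusted p = 0.0101, edgeR), but did not pass without Ctr 2 (0.0532) or Ctr 3 (0.0578). For DNase against Lpr 0 passed, 9 of 13 were below 0 and the median was -0.44.

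H2-Eb2, a neighbour of H2-Eb1 in the region, was at 5 or 6 counts in each Ctr kidney, at 59 to 663 in Lpr kidneys and at 113 to 208 in DNase kidneys, and rose by 5.62 ± 0.86 SE in Lpr (adjusted p = 0.00425) and 4.78 ± 0.34 SE in DNase (adjusted p = 1.84e-05). Without Lpr 2 the Lpr value was 4.86. Its longest transcript matched that of H2-Eb1 at 77.9% of 779 aligned bases, with a longest shared run of 44 bases, and whether reads of H2-Eb1 were counted to it was not tested. Btnl2, the other gene of the region, was at 0 to 3 counts in Ctr kidneys and was higher by a log2 of at least 4.25 in Lpr and 3.34 in DNase. Lpr 2 held 142 Btnl2 counts against 23 to 39 in the other Lpr kidneys, and without it the bound was 3.39 in Lpr. Btnl2 did not pass for Lpr against Ctr without Ctr 3 (adjusted p = 0.0561).

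Of 8 genes for receptors and costimulation that act with class II, 7 passed and were higher for Lpr against Ctr, the same number for DNase against Ctr, and 0 for DNase against Lpr. Cd4, the T cell coreceptor that binds class II, was at 0.416, 0.215 and 0.332 FPKM in Ctr kidneys and at 5.82, 11.9, 2.42 and 5.34 in Lpr kidneys. In DNase kidneys it was at 5.58, 7.50, 7.89 and 7.01, with no overlap with Ctr. It rose by 4.25 ± 0.55 SE in Lpr (adjusted p = 0.00195) and by 4.34 ± 0.23 SE in DNase (adjusted p = 3.95e-06). Lag3, an inhibitory receptor for class II, rose by 3.40 ± 0.35 SE (adjusted p = 0.000726) and Cd86, a costimulatory ligand, by 2.94 ± 0.38 SE (adjusted p = 0.00199) in Lpr. Icosl was the gene that did not pass, at 0.07 ± 0.29 SE.

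Markers of leukocytes moved with the class II genes, and their part in the class II values was not tested. All 10 markers of macrophages and monocytes passed and were higher for Lpr against Ctr (median log2 fold change 3.01), as were 8 of 8 T cell markers listed (4.02) and 6 of 6 leukocyte markers (2.79). Summed macrophage marker FPKM was 82.8 to 107 in Ctr, 511 to 1030.2 in Lpr and 408 to 808 in DNase kidneys. The leading macrophage markers were Ly6c2 at 4.22, Fcgr1 at 3.60 and C1qa at 3.44. Csf1r, at 0.89, did not pass without Ctr 1, Ctr 2, Ctr 3, Lpr 1, Lpr 2 or Lpr 4 (adjusted p from 0.0606 to 0.165 in edgeR). Of 10 markers of conventional dendritic cells 5 passed, all higher, with Xcr1 at 3.12 and Itgax at 2.89, the latter not without Ctr 1 (adjusted p = 0.0512). Others of the list went the other way or lay near 0. Cd209a was at -1.76 for Lpr against Ctr, below Ctr in every Lpr kidney but not passing (adjusted p = 0.118), and fell by 3.36 for DNase against Ctr (adjusted p = 0.00122), while Zbtb46 was at -0.07 for Lpr against Ctr. For DNase against Lpr 0 markers of these 4 lists passed. All 10 macrophage and monocyte markers (median log2 fold change -0.43) and all 6 leukocyte markers (-0.19) were below 0, against 52.9% of all genes tested. So were 5 of 8 T cell markers (-0.14) and 4 of 9 tested markers of conventional dendritic cells (0.01).

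B cell markers, which belong to the cell type best known for H2-O, were listed for 10 genes. For Lpr against Ctr 2 of the 8 tested passed, Cd22 at 5.47 and Cd79a at 3.09, and 5 of 9 passed for DNase against Ctr. Cd79a did not pass without Ctr 1, Ctr 3, Lpr 2 or Lpr 4 (adjusted p from 0.0735 to 0.0956 in edgeR), and Cd22 was at 6.23 without Ctr 1. Cr2 lay below Ctr in every MRL/lpr kidney, at -1.25 in Lpr (adjusted p = 0.0988) and -0.92 in DNase (adjusted p = 0.0874), and Fcrla was at 0.00 for Lpr against Ctr. For DNase against Lpr all 9 tested had a log2 fold change above 0, with a median of 1.23, although 0 passed. Of all genes tested, 52.9% were below 0. An unadjusted p under 0.05 in edgeR was found for 5 of the 9, and 343 of all 15832 genes were higher at that level. Pax5 had the largest difference, at 2.29 (adjusted p = 0.820, edgeR), from 4 to 7 counts in Lpr and 14 to 55 in DNase kidneys. Summed B cell marker FPKM was 1.04 to 5.31 in Ctr, 9.66 to 17.8 in Lpr and 12.8 to 28.9 in DNase kidneys. The level of Ms4a1, a defining marker, was at or under 0.602 FPKM on average in every group. Pax5 had too few counts to be tested between Lpr and Ctr, and Fcer2a in any comparison. Their part in the H2-Oa and H2-Ob values was not tested.

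Kidney markers were present in all libraries, and 0 of 10 passed for Lpr against Ctr, with a median log2 fold change of -0.38 and a summed FPKM of 18779 to 22599.9 in Ctr and 4509 to 31507 in Lpr. Fat markers, from tissue around the kidney, ranged from 37.4 to 1356 summed FPKM in Lpr, 45.6 to 293 in DNase and 64.7 to 1072 in Ctr kidneys. Of 3 tested markers of lymph node stroma and vessels, 2 passed and were higher for Lpr against Ctr, Cxcl13 at 5.00 (5.59 without Ctr 1) and Ccl19 at 2.71. Without Lpr 3, which had the highest fat and kidney marker sums of its group, 9 members were called for Lpr against Ctr, against 4.74% of all genes tested, and all 10 passed, against 11.0% of all genes.

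**Figure D4:**
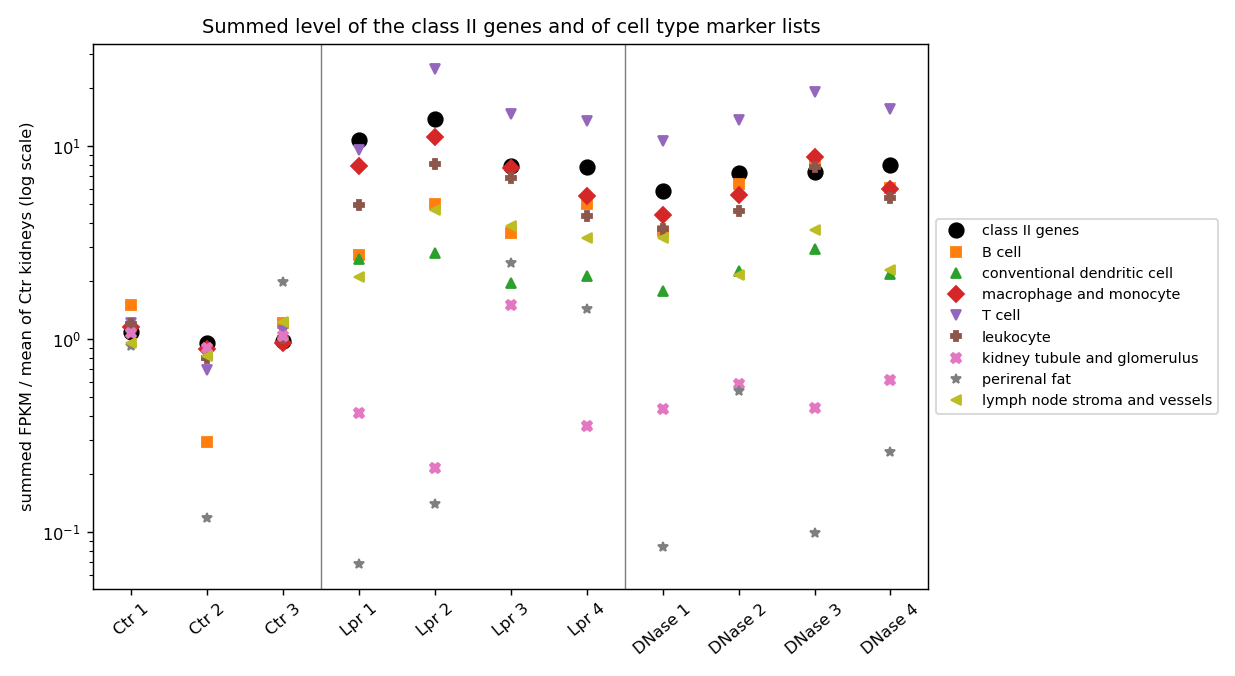
Summed FPKM of the 10 class II genes and of 8 lists of cell type markers in each kidney, divided by the mean of the Ctr kidneys (vertical axis, log scale). Each point is 1 list in 1 kidney, and grey lines separate Ctr, Lpr and DNase. The class II sum is 7.74 to 13.7 times the Ctr mean in Lpr and 5.86 to 8.00 times in DNase, the macrophage sum is 5.51 to 11.1 times in Lpr and 4.40 to 8.71 times in DNase, and the fat sum varies within every group.

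Genes whose level followed the class II genes over the 8 MRL/lpr kidneys were sought among 13968 genes with a mean CPM of at least 1. For the mean log2 level of H2-Aa, H2-Ab1, H2-Eb1 and Cd74 the 8 closest were H2-T22 (Pearson r = 0.98), H2-M3 (0.97), Dyrk3 (0.97), Ctsb (0.97), Hdac1 (0.96), Lgals9 (0.96), Aldh3b1 (0.95) and Gsdmd (0.95). H2-T22 and H2-M3 are nonclassical class I genes, and Ctsb is an endosomal protease. For H2-Ob they were Mpeg1 (0.98), Il10ra (0.98), Laptm5 (0.97), Fermt3 (0.97), Il21r (0.97), Cd68 (0.97), Arhgap25 (0.96) and Slc37a2 (0.95). Mpeg1 and Cd68 are known from macrophages. Without Lpr 2, the kidney farthest from the median, r stayed at 0.90 to 0.97 for the first set and at 0.89 to 0.97 for the second. The kidneys share libraries for all these genes, and each list is the top of a ranking of all of them.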

How the data were processed

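RNA-seq of whole kidney was analysed from 2 tables of the whole series. The authors deposited raw read counts per gene, made with fastp and HTSeq on mm10 per the submitters' processing notes, and FPKM values from the same counts. The aligner settings, annotation release and strand setting are not given in the sources used here. The deposited FPKM implied 1 length per gene, equal in all kidneys within 0.1% for all 25677 genes. Groups came from the labels, and 0 sample columns were left out.

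Counts were tested for each pair of groups alone with edgeR 4.0.16 in R 4.3.3 (filterByExpr, TMM, quasi-likelihood test, Benjamini-Hochberg over all genes tested). A gene passed at an adjusted p under 0.05 and was called with an absolute log2 fold change above 2 as well, after the methods of the study. SE is the log2 fold change divided by the root of F. Ratios of 2 members used a prior count of 2 and a 2-sided exact permutation test over kidneys. All 10 members are named. Genes of fixed pathway lists are counted and named when called between Lpr and Ctr or when a role needs them, marker lists are given by counts and up to 4 genes with the largest fold changes, and the 8 genes most like the classical chains or H2-Ob are named. Nfya, Creb1, Csf1r, Cd209a, Zbtb46, Cr2, Fcrla, Ctsl, Marchf1, Marchf8, Icosl, Ms4a1, Pax5 and Fcer2a fell outside this rule and were chosen after their values were seen. Some genes of the lists are not reported here by name. The members and lists were chosen with earlier results of these data known. Alternatives were DESeq2 1.42.0, its size factors, no filter, 1 fit of all groups, a replicate block, a correction for gene length, limma 3.58.1 on the FPKM (pseudocount 1 or 0.1 before log2, genes averaging 0.5 FPKM or more), a prior count of 0.5, and each kidney left out. Fitting H2-DMb1 and H2-DMb2 as 1 gene was chosen after seeing the data. The edgeR step was tested on simulated data. Transcripts were compared with blastn 2.17.0+. No pair of libraries agreed within sampling noise, and p-values measure the spread between single mice.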

Additional observations from a re-analysis of the deposited data

Results flagged for a closer look

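Within the groups of 4 kidneys, 34 sets of values (10 members and 7 ratios in Lpr and in DNase) were searched for a kidney far from the others, and chance alone gives about 1 in 20. There were 2, both ratios in Lpr 2. Its log2 ratio of H2-Ob to H2-DMb1 was -5.33, with the other Lpr kidneys at -5.70 to -5.69. Its log2 ratio of H2-DMb2 to H2-DMb1 was 0.63, with the others at 0.50 to 0.52. Lpr 2 also had the highest level of both genes of each ratio among the Lpr kidneys, and the cause was not tested.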

How the results depend on the processing

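For Lpr against Ctr, 6 to 9 members were called higher with 1 kidney left out (3.21% to 4.74% of all genes), and for DNase against Ctr 5 to 7 (4.10% to 4.75%), beside 7 and 6 with all kidneys. Without the fold threshold 10 members passed for DNase against Ctr, against 13.1% of all genes. H2-Oa passed for Lpr against Ctr with DESeq2 (adjusted p = 0.00588) and with all 3 groups in 1 fit (0.0264), and H2-Ob did not pass with limma on log2(FPKM + 1) (0.0599). The replicate numbers did not pair the kidneys: correlations of same-numbered deviations ran from -0.28 to 0.16. With a replicate block H2-Ob did not pass for Lpr against Ctr (log2 2.05, adjusted p = 0.0642), 7 members were called for Lpr against Ctr (4.36% of all genes) and 6 for DNase against Ctr (4.03%), where H2-Eb1 was lost (log2 1.96) and H2-Oa gained, and the H2-Oa difference of DNase from Lpr became 0.00913. That H2-Oa difference was also above 0 with limma on log2(FPKM + 1) (0.0191) and log2(FPKM + 0.1) (0.0574), and ran from -0.35 to 0.40 with 1 kidney left out. The H2-Ob difference ran from -0.36 to 0.16 and that of Ciita from -0.69 to 0.0547 with 1 kidney left out, and Ciita was at 0.0208 with limma on log2(FPKM + 0.1). With 1 kidney left out, log2 ratio differences of DNase from Lpr ran from -0.0124 to 0.0854 for H2-Aa over H2-Ab1, from -0.0160 to 0.134 for Cd74 over H2-Ab1, from -0.0471 to 0.883 for Ciita over H2-Ab1 and from -0.132 to -0.0855 for H2-DMb2 over H2-DMb1, where the smallest p an exact permutation test can give rises to 0.0571. For H2-Ob over H2-DMb1 in Lpr against Ctr they ran from -0.27 to 0.36. With the length trend of each library removed, 6 members were called for Lpr against Ctr (4.77% of all genes), without H2-Ab1, and 5 for DNase against Ctr (4.53%), without H2-Eb1. Causes were not tested. Depth limits H2-Oa and H2-Ob most, at 7 to 40 counts in Ctr kidneys.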
